A study of Mus musculus with 9 samples.

Results

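The genes described here are those of the orexin and melanin-concentrating hormone (MCH) systems of the hypothalamus: the peptide genes Hcrt and Pmch, the receptor genes Hcrtr1, Hcrtr2 and Mchr1, and Lhx9, which encodes a LIM-homeodomain transcription factor. These 6 genes were chosen by name, with earlier results from the same libraries known, out of 35975 genes with a quantified transcript. All 6 were expressed above the filter on low values and all 6 had a row in the authors' gene table. Because the difference between the maternal treatments was known when the genes were chosen, it is given for them as a description, with its standard error (SE) and without a test.

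RNA was sequenced from the mediobasal hypothalamus (MBH), which includes the arcuate nucleus, of male C57Bl/6 offspring at P21, the age of weaning. The CTRL libraries (n = 4) came from litters of wild-type dams that drank water. The Emul libraries (n = 5) came from litters of wild-type dams whose drinking water held 1% carboxymethylcellulose (CMC) and 1% polysorbate 80 (P80), 2 dietary emulsifiers, from before mating until the pups were weaned. Both groups were the same sex and age and carried no transgene, and the libraries were counted as 1 per litter, following the methods. Whether a library held tissue of more than 1 pup is not stated in the sources used here.

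Orexin neurons and MCH neurons are separate, intermingled populations of the lateral hypothalamus, and MCH neurons also extend into the zona incerta. Hcrt encodes prepro-orexin, which is cleaved into orexin A and orexin B, peptides that maintain wakefulness and promote food seeking. Pmch encodes the precursor of MCH, which promotes feeding, energy storage and REM sleep. HCRTR1 prefers orexin A, whereas HCRTR2 binds both orexins and is the receptor of histamine neurons. MCHR1, the MCH receptor of mice, signals through Gi and Gq proteins and sits on the primary cilium of neurons. LHX9 is made in developing and mature orexin neurons and can activate Hcrt. The peptide mRNAs are made in a small number of cells of the lateral hypothalamus, while receptor mRNAs are made by neurons more widely. How much of the lateral hypothalamus the dissections held is not stated in the sources used here.

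In the mm10 build, Hcrt lies on the minus strand at chr11:100761069-100762931 and Pmch on the plus strand at chr10:88091072-88092375. Their promoters are printed because the levels of these 2 genes moved together, chiefly across the Emul libraries, as described below. Sequences are from RefSeq (GRCm38.p6, the assembly of mm10) and give the 250 bases before the start site, 5′ to 3′ on the strand of the gene. The Hcrt stretch is chr11:100762932-100763181 on the minus strand and the Pmch stretch is chr10:88090822-88091071 on the plus strand. Capitals mark TATAAA, the TATA box core, and in Pmch also TGAGTCA, the reverse complement of TGACTCA, which is the core bound by AP-1 factors.
Hcrt promoter: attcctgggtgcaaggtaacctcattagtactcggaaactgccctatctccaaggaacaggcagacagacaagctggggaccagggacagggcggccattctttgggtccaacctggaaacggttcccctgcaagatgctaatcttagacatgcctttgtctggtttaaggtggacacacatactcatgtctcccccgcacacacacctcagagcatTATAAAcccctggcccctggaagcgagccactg
Pmch promoter: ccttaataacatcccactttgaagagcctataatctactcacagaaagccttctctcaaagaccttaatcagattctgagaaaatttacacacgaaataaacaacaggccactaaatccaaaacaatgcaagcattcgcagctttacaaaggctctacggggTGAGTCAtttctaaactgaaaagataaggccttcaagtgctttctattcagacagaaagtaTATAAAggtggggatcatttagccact
The first base of TATAAA stood at position -33 in Hcrt and -27 in Pmch, counted from the start site. Over the whole promoter window of 300 bases, which adds 50 bases after the start, the other 4 genes (6 windows, 3 of them of Hcrtr1) had no TATAAA on the strand of the gene. Of 32851 mouse promoters of the same length, 8.32% held TATAAA on the strand of the gene and 13.6% on either strand. TGACTCA was found on the minus strand of Pmch only, at position -88, and in 5.20% of all promoters on either strand. TAATTA, a core bound by LIM-homeodomain factors such as LHX9, was in none of the 8 windows and in 5.29% of all promoters. TAATTA reads the same on both strands, and no match of the 3 motifs overlapped another. The Hcrt window was 53.3% GC and the Pmch window 39.0%, against a median of 52.7% over all promoters. These matches describe letters in the window and not binding.

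The libraries held between 28245360 (CTRL 3) and 46067534 (Emul 4) estimated counts. The arcuate genes Pomc, Agrp and Npy, which define the MBH, were measured in every library, with mean CTRL levels of 4.36 ± 0.37, 3.41 ± 0.09 and 5.41 ± 0.08 log2 CPM (SD, n = 4). Levels between genes are compared below in TPM, which accounts for transcript length. Levels between libraries are compared as log2 CPM, the log2 of each gene's counts relative to the library total (CPM) after TMM scaling of the library sizes. Between 98 and 14476 counts stood behind each value of the 6 genes. Counting error was therefore largest for Lhx9, with 98 to 288 counts, and small for the peptides.

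Pmch was among the most abundant transcripts of the tissue and Hcrt was not far behind it. Pmch stood at 1150 ± 74.4 TPM in CTRL (SD, n = 4), rank 55 of 35975 genes by its mean over the 9 libraries. Hcrt stood at 452 ± 34.5 TPM in CTRL, rank 325. The receptors were far lower, at 11.9 ± 0.782 TPM for Mchr1, 10.1 ± 0.806 TPM for Hcrtr1 and 6.47 ± 0.179 TPM for Hcrtr2, and Lhx9 was the lowest at 2.18 ± 0.510 TPM. The order Pmch, Hcrt, Mchr1, Hcrtr1, Hcrtr2, Lhx9 held in 9 of 9 libraries. Within CTRL the ranges of neighbours in this order did not overlap except for Mchr1 (11.0 to 12.9 TPM) and Hcrtr1 (9.39 to 11.2 TPM), which do not differ beyond their spread there. In Emul no neighbours overlapped.

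Hcrt was lower in most Emul libraries and more variable among them. In log2 CPM, Hcrt was 6.79, 6.65, 6.52 and 6.53 in CTRL 1 to 4 and 6.58, 6.26, 5.30, 6.19 and 5.22 in Emul 1 to 5. Emul 1 lay inside the CTRL range, the other 4 Emul libraries lay below it, and Emul 3 and Emul 5 were the lowest. The mean was 6.62 ± 0.13 in CTRL (SD, n = 4) and 5.91 ± 0.61 in Emul (SD, n = 5), and the log2 fold change was -0.70 ± 0.23 (SE, limma-voom), or 0.614-fold. Without Emul 5 the log2 fold change was -0.54 and without Emul 3 it was -0.55, while leaving out Emul 1 gave -0.87. In TPM, Hcrt was 409 to 493 in CTRL and 170 in Emul 3 and 159 in Emul 5. In bulk tissue, fewer orexin neurons in the sample and less Hcrt mRNA per neuron cannot be told apart.

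Across the Emul libraries, Pmch followed Hcrt with a smaller amplitude. In CTRL the order differed, with CTRL 3 the lowest for Hcrt (6.52) but above CTRL 2 and CTRL 4 for Pmch. Pmch was 8.52, 8.38, 8.47 and 8.39 log2 CPM in CTRL 1 to 4 and 8.46, 8.25, 7.90, 8.17 and 7.83 in Emul 1 to 5. Emul 1 was again the only Emul library inside the CTRL range, and Emul 3 and Emul 5 were again the lowest. The mean was 8.44 ± 0.07 in CTRL and 8.12 ± 0.26 in Emul, with a log2 fold change of -0.32 ± 0.10 (SE), or 0.802-fold. In TPM, the 5 Emul libraries stood at 1090, 897, 744, 909 and 706. The Pmch to Hcrt ratio in TPM was 4.37 in Emul 3 and 4.44 in Emul 5, against 2.41 to 2.77 in CTRL and 2.65 to 2.85 in the other Emul libraries.

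Parpbp, a regulator of homologous recombination, is encoded on the other strand over Pmch (chr10:88091432-88146941), and 435 of the 749 exonic bases of Pmch (58.1%) are also exonic in Parpbp. The library kit marks strand, but whether the quantification used it is not given in the sources used here, so reads of the shared stretch could be assigned to either gene. Parpbp had 66 to 121 counts per library against 8260 to 14476 for Pmch, so that Parpbp reads could add little to Pmch, whereas the Parpbp value is uncertain. Parpbp was 1.22, 1.35, 1.31 and 1.29 log2 CPM in CTRL and 1.43, 1.17, 0.87, 1.45 and 0.90 in Emul. As with the peptides, Emul 3 and Emul 5 were the lowest libraries.

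**Figure D1:**
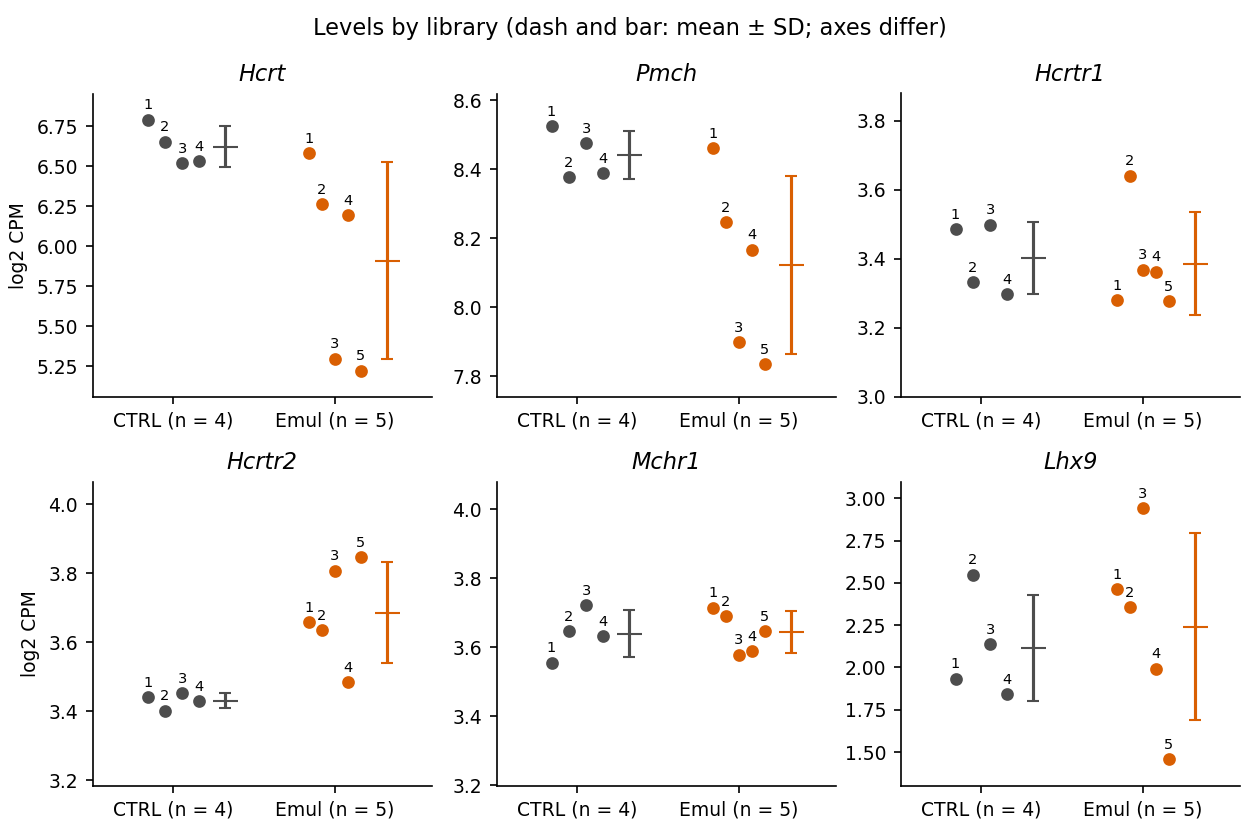
Log2 CPM of the 6 genes in each library (points, numbered by replicate, CTRL n = 4 and Emul n = 5), with the mean and SD of each group as dash and bar; the vertical axes differ between genes. Emul 3 and Emul 5 are the lowest for Hcrt (5.30 and 5.22) and Pmch (7.90 and 7.83) and the highest for Hcrtr2 (3.81 and 3.85).

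The 2 orexin receptors differed in pattern. Hcrtr2, the receptor of histamine neurons (minus strand, chr9:76225880-76323856), was 3.44, 3.40, 3.45 and 3.43 log2 CPM in CTRL 1 to 4 and 3.66, 3.63, 3.81, 3.48 and 3.85 in Emul 1 to 5. On this scale every Emul library exceeded the highest CTRL library, although Emul 4 did so by a small step. In TPM the groups overlapped, with Emul 4 (6.55) inside the CTRL range (6.32 to 6.69). The log2 fold change was 0.25 ± 0.08 (SE), or 1.19-fold. In log2 CPM, Hcrtr2 was the 1 gene of the 6 whose groups did not overlap, against 6.6% of the 15340 genes tested. These were 2.8% above CTRL in every Emul library and 3.8% below it. In TPM the ratio of Hcrt to Hcrtr2 was 62.4 to 78.0 in CTRL and 19.1 to 57.5 in Emul, without overlap of the groups. This ratio sets a gene that was lower against a gene that was higher, so it restates those differences. The ratios of Pmch to Hcrt, Hcrtr1 to Hcrtr2 and Pmch to Mchr1 overlapped between the groups.

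Hcrtr1 (minus strand, chr4:130130217-130139359), which prefers orexin A, was 3.49, 3.33, 3.50 and 3.30 log2 CPM in CTRL and 3.28, 3.64, 3.37, 3.36 and 3.28 in Emul. The groups overlapped, and Emul 2 was the highest of all 9 libraries. The log2 fold change was -0.00 ± 0.08 (SE). Mchr1 (plus strand, chr15:81235499-81238964) had a similar spread in both groups, with an SD of 0.07 in CTRL and 0.06 in Emul. It was 3.55, 3.65, 3.72 and 3.63 log2 CPM in CTRL and 3.71, 3.69, 3.58, 3.59 and 3.65 in Emul, and every Emul library lay inside the CTRL range. Its log2 fold change was 0.01 ± 0.06 (SE).

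Lhx9 (minus strand, chr1:138825186-138848577) varied more than the receptors between libraries of the same group, with an SD of 0.31 in CTRL and 0.55 in Emul. It was 1.93, 2.55, 2.14 and 1.84 log2 CPM in CTRL and 2.46, 2.36, 2.94, 1.99 and 1.46 in Emul. Emul 3 had the highest value and Emul 5 the lowest, although both were the lowest for Hcrt. The thalamus marker list, given below, had the same order across the Emul libraries. The log2 fold change was 0.13 ± 0.25 (SE), and it was -0.04 without Emul 3 and 0.31 without Emul 5.

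By limma-voom, 3 of the 6 genes (Hcrt, Pmch and Hcrtr2) had an unadjusted p-value under 0.05, against 15.8% of all genes tested. Hcrt and Pmch were among the lower genes, which made up 8.99% of all genes, and Hcrtr2 among the higher ones, which made up 6.84%. Hcrt alone also exceeded the fold change of 1.5 that the study used as its cutoff, against 0.469% of all genes in either direction and 0.222% lower in Emul. Its log2 fold change fell short of that cutoff (0.58 on the log2 scale) without Emul 5 (-0.54), without Emul 3 (-0.55) and with the replicate number as a block (-0.51). After Benjamini-Hochberg adjustment over all 15340 genes, 0 of the 6 had an adjusted p-value under 0.05 by limma-voom, against 0.117% of all genes. With edgeR, DESeq2 and limma-trend the counts were likewise 3 unadjusted and 0 adjusted. Since the genes were chosen with this comparison known, these counts carry no test of the group.

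**Figure D2:**
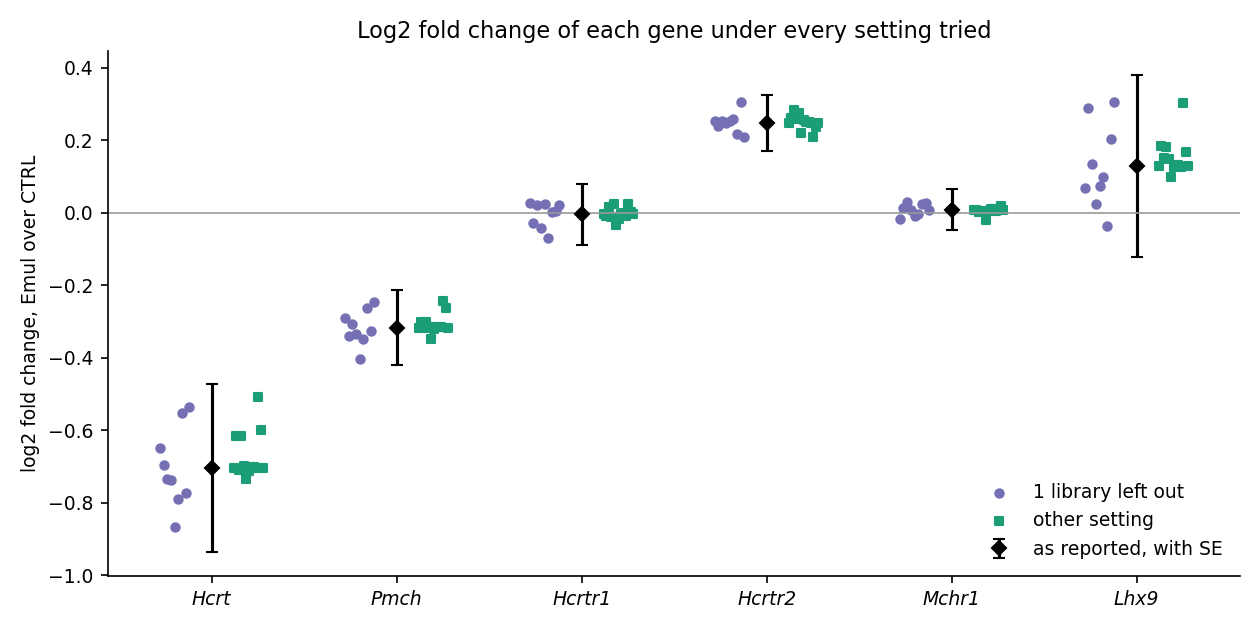
Log2 fold change of Emul over CTRL for each of the 6 genes as reported (diamond, with SE), with each library left out in turn (circles) and under the other settings (squares). Hcrt lay between -0.87 and -0.51 and Pmch between -0.40 and -0.24 under every setting tried, Hcrtr2 lay between 0.21 and 0.31, and Hcrtr1, Mchr1 and Lhx9 crossed 0.

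Whether the genes varied together apart from the maternal treatment was asked by subtracting from each library the mean of its own group. Over the 9 libraries, Hcrt and Pmch were correlated with Pearson's r = 0.96 (two-sided exact permutation within groups, p = 0.00625, adjusted p = 0.094 over 15 pairs) and Spearman's rho = 0.92 (exact permutation, p = 0.012, adjusted p = 0.18). Without Emul 3 and Emul 5, the libraries farthest from the median of Hcrt, r was 0.84. The correlation was 0.98 within the 5 Emul libraries and 0.49 within the 4 CTRL libraries, where both genes spanned a narrow range. Of the 15 pairs of genes, 0 passed after adjustment. The deviation of Hcrt from its group mean was 0.67 in Emul 1, 0.35 in Emul 2 and 0.28 in Emul 4, against -0.61 in Emul 3 and -0.69 in Emul 5. Those of Pmch had the same sign in each of these libraries. In CTRL 2 and CTRL 3 the signs were opposite (0.03 and -0.11 for Hcrt, -0.06 and 0.03 for Pmch).

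Hcrt and Hcrtr2 varied in opposite directions within groups, with r = -0.77 (exact permutation, p = 0.167, adjusted p = 0.96) and rho = -0.82 (exact permutation, p = 0.067, adjusted p = 0.51). Without Emul 3 and Emul 5, r was 0.53, so the inverse relation rested on those 2 libraries. Pmch and Hcrtr2 had r = -0.61 (exact permutation, p = 0.258, adjusted p = 0.96). The other 12 pairs lay between -0.19 and 0.42, and Lhx9 had r = 0.15 with Hcrt and r = 0.18 with Pmch.

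**Figure D3:**
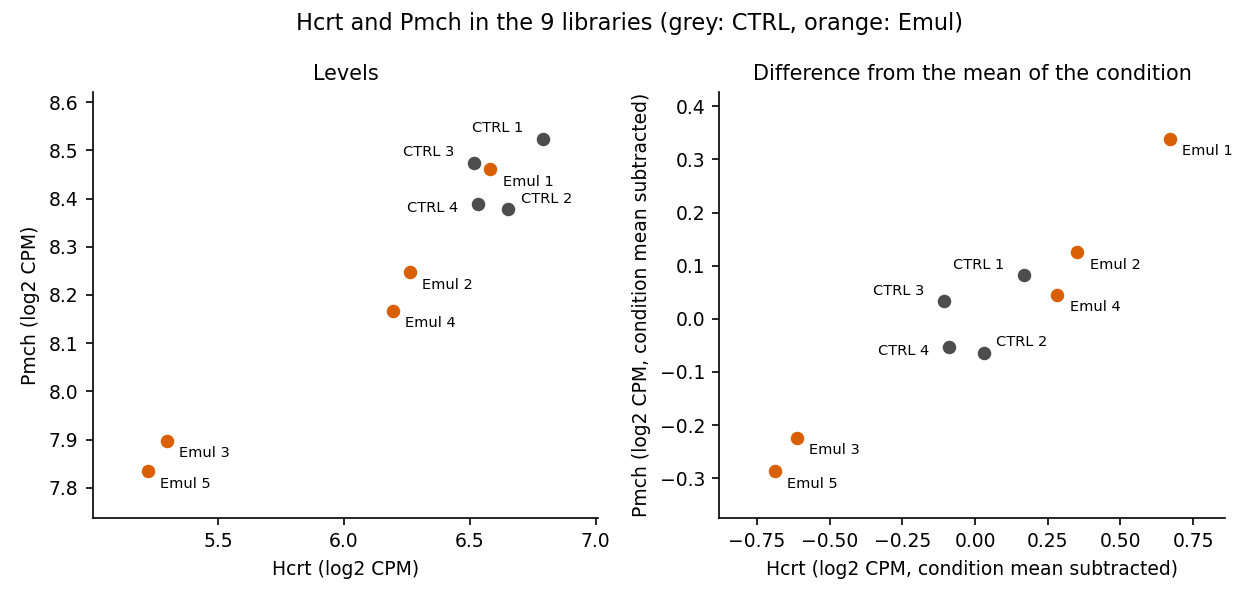
Hcrt against Pmch in the 9 libraries, as log2 CPM (left) and after the mean of each group was subtracted (right), with CTRL in grey and Emul in orange. Emul 3 and Emul 5 lie apart at the lower left in both panels, and the points on the right have r = 0.96 with them and r = 0.84 without them.

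Among 15313 genes ranked by their within-group correlation with Hcrt over the 9 libraries, the 5 most alike were Gm45837 (r = 0.99), Npc1 (0.97), Btbd16 (0.97), Mrpl36 (0.97) and 1190002N15Rik (0.97). Pmch came next at rank 6, Parpbp was at rank 62 (r = 0.87) and Hcrtr2 was near the other end at rank 15006. For Pmch, the 5 most alike were 1190002N15Rik (0.98), Znhit1 (0.97), Hcrt (0.96), Tmem175 (0.96) and Mief2 (0.94). All points share the same 9 libraries and the same scaling factors, and with this many genes high values arise readily, so the ranks only describe these libraries.

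The peptide genes were each read from 1 transcript. Hcrt-202 took 0.0235% of the Hcrt counts and Hcrt-201 the rest, and Pmch and Mchr1 have 1 quantified transcript each. The receptor Hcrtr2 was split between Hcrtr2-201 (82.5% of counts over all libraries, 78.7% to 86.6% per library) and Hcrtr2-203 (17.3%, 13.4% to 21.1%). A retained intron of this gene, Hcrtr2-202, had 0 counts in every CTRL library and 1 to 4 counts in each Emul library, 9 in all, which is too few to read. Hcrtr1-201 took 62.1% of the Hcrtr1 counts (45.2% to 76.0%) and Hcrtr1-202 took 23.1% (16.6% to 35.6%). The Lhx9 counts were spread over 6 of 7 transcripts, led by Lhx9-201 (46.3%) and Lhx9-202 (33.3%). In Emul 5, the library with the lowest Lhx9, Lhx9-201 was down to 22.4%, while Lhx9-205 took 22.5% and Lhx9-204 took 18.0%, with 98 counts in all to divide among them.

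**Figure D4:**
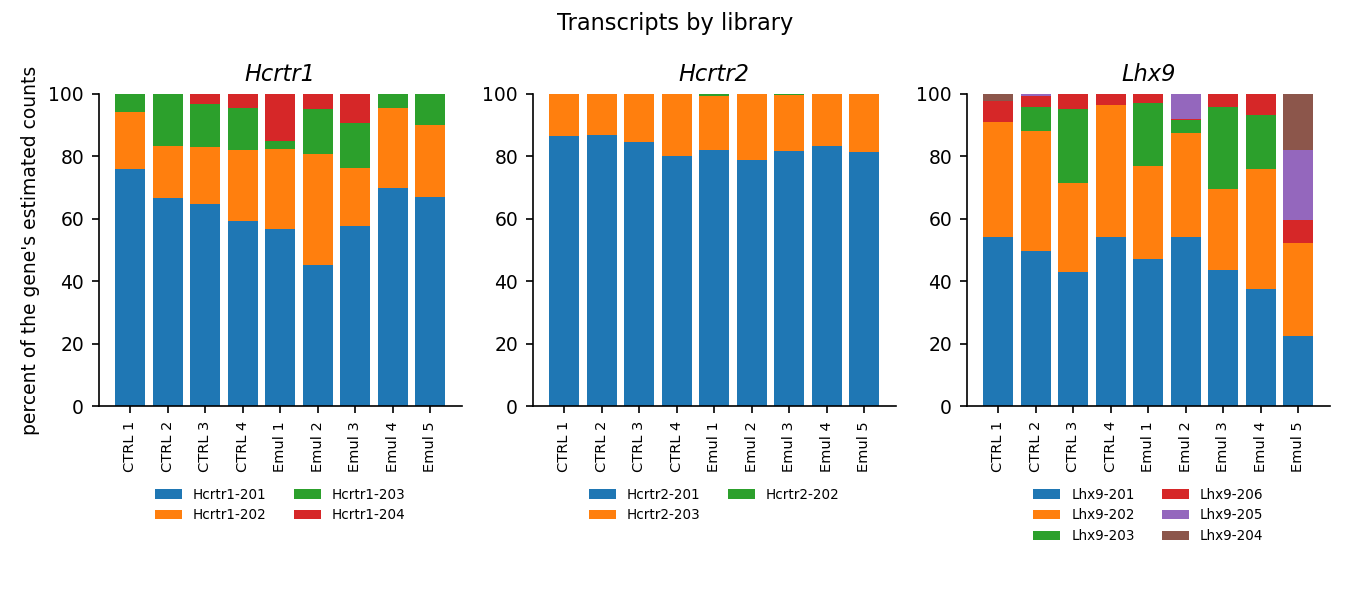
Share of the estimated counts of Hcrtr1, Hcrtr2 and Lhx9 on each of their transcripts (stacked bars, percent) in the 4 CTRL and 5 Emul libraries. Hcrtr2-201 keeps between 78.7% and 86.6% in every library, whereas the largest Lhx9 transcript ranges from 22.4% to 54.3%.

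Genes of the same neurons, of the receptor pathways and of neighbouring regions were read beside these values. Of 84 such genes in 13 lists, 81 were tested, and Lhx8, Kiss1 and Nms were too low. An unadjusted p-value under 0.05 was reached by 15 of the 81 (18.5%, against 15.8% of all genes tested), 10 of them higher (6.84% of all genes) and 5 lower in Emul (8.99% of all genes), with a median log2 fold change of 0.03 over the 81 and 0.00 over all genes. Adjusted over all genes tested, 0 passed by limma-voom, 0 by edgeR (17 unadjusted), 0 by limma-trend (17 unadjusted) and 4 by DESeq2 (Calb1, Calb2, Cpe and Rfx4, with 16 unadjusted). With each library left out in turn, 8 of the 15 stayed under the unadjusted threshold throughout (Calb1, Calb2, Cpe, Fezf1, Rfx4, Rora, Scg5 and Tulp3). The other 7 kept their direction but missed it at least once, as given next with the log2 fold change that remained. Bbs4 did so without CTRL 1 or CTRL 3 (0.08 in both), Pcsk2 without CTRL 3 (0.07) or Emul 3 (0.08), and Plcb4 without CTRL 3 (0.10), Emul 3 (0.13) or Emul 5 (0.15). Grp missed it without CTRL 1 (0.26), CTRL 3 (0.25), Emul 2 (0.24) or Emul 5 (0.26), and Vip without CTRL 1 (-1.31), Emul 2 (-1.25), Emul 3 (-1.21) or Emul 5 (-1.14). Gnai3 missed it without any 1 of 6 libraries (CTRL 1, 2 and 4, Emul 1, 3 and 4; -0.11 to -0.08), and Gnao1 without any 1 of 7 (all but CTRL 1 and Emul 4; 0.05 to 0.07).

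Of 7 genes known from orexin neurons, 1 was lower (8.99% of all genes tested) and 0 were higher (6.84%) at that threshold. The 7 had a median log2 fold change of 0.03, with values from -0.26 to 0.22. The genes named next had the negative values of this list, and the rest were positive. Rfx4, a transcription factor that astrocytes also express, was lower in Emul by a log2 fold change of -0.26 ± 0.06 (SE, limma-voom adjusted p = 0.11). Its groups did not overlap, as in 6.6% of all genes tested. Pdyn, the dynorphin precursor that orexin neurons release with orexin, was 5.62 ± 0.17 log2 CPM in CTRL and 5.58 ± 0.12 in Emul. Dlk1, a membrane protein enriched in orexin neurons, was 7.41 ± 0.07 and 7.35 ± 0.07. Both have other sources in the hypothalamus, so that these values need not follow the orexin neurons. The mean of the orexin neuron list was 4.726 to 4.805 log2 CPM in CTRL. It was 4.784, 4.800, 4.810, 4.705 and 4.827 in Emul 1 to 5. The within-group r of this mean was -0.39 with Hcrt and -0.23 with Pmch. Of 5 genes known from MCH neurons, 0 passed even unadjusted, and Nptx1, a pentraxin of synapses, and Cnr1, the cannabinoid receptor, had log2 fold changes of -0.08 ± 0.05 and -0.01 ± 0.06 (SE). The 5 genes, of which Parpbp is 1 and is uncertain, had a median log2 fold change of -0.08. All 5 values were negative, that of Cnr1 close to 0, as were those of 7552 of the 15340 genes tested. The mean of the list was 4.94 to 5.02 log2 CPM in CTRL and 5.00, 4.92, 4.73, 5.00 and 4.87 in Emul 1 to 5. Parpbp, which may hold reads of Pmch, is part of this mean. The mean was lowest in Emul 3 and Emul 5 and had a within-group r of 0.77 with Hcrt and 0.66 with Pmch. By gene, r with Hcrt was 0.87 for Parpbp, 0.18 for Nptx1, 0.20 for Cnr1, and 0.75 and 0.13 for the rest.

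Peptide precursors are cut by convertases and trimmed by carboxypeptidase E. Of 6 genes for this processing, 3 were higher in Emul unadjusted (6.84% of all genes tested) and 0 were lower (8.99%). A link of these genes to the peptide values was not tested. Cpe, the carboxypeptidase, differed by 0.15 ± 0.04, Scg5, the chaperone of the convertase PC2, by 0.11 ± 0.04, and Pcsk2, PC2 itself, by 0.10 ± 0.04 (log2 fold change, SE; limma-voom adjusted p = 0.17, 0.20 and 0.25). Pcsk1n, an inhibitor of the convertase PC1, had -0.03 ± 0.04.

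Downstream of the receptors, 3 of 15 genes for G proteins, phospholipases and effector channels passed unadjusted, against 15.8% of all genes tested. Plcb4, a phospholipase C, and Gnao1, the abundant Go subunit, were higher by 0.17 ± 0.07 and 0.06 ± 0.03, and Gnai3, a Gi subunit, was lower at -0.10 ± 0.04 (log2 fold change, SE; limma-voom adjusted p = 0.26, 0.31 and 0.30). Slc8a1, the sodium-calcium exchanger through which orexin and MCH receptors act on some neurons, had 0.03 ± 0.05. Of 10 genes of the primary cilium, where MCHR1 resides, 2 passed unadjusted. Bbs4 of the BBSome was higher by 0.08 ± 0.03 (limma-voom adjusted p = 0.24). Tulp3, an adaptor that carries receptors into the cilium, was lower at -0.15 ± 0.05 (limma-voom adjusted p = 0.18). Each was without overlap of the groups, as were 6.6% of all genes tested. Kif3a, a ciliary motor, and Adcy3, the cyclase of neuronal cilia, had 0.05 ± 0.03 and -0.04 ± 0.03. Of 5 histamine neuron genes, which mark a main target of HCRTR2, 0 passed, with Hdc, the histidine decarboxylase, at 0.09 ± 0.12 and Slc18a2, the vesicular monoamine transporter, at -0.06 ± 0.13.

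Marker lists of the regions an MBH dissection can hold were set beside Hcrt and Pmch in each library. Of 4 lateral hypothalamus and zona incerta genes, 1 was higher (6.84% of all genes tested) and 0 were lower (8.99%) unadjusted. Since the list is incomplete here, its mean was not set beside the peptides. Calb1, a calcium-binding protein, was higher in Emul by 0.17 ± 0.04 (log2 fold change, SE, limma-voom adjusted p = 0.11). Its groups did not overlap, as in 6.6% of all genes tested, and its r with Hcrt was -0.74. Tac1, the substance P precursor, had a log2 fold change of -0.00 ± 0.06 and r = -0.13 with Hcrt. For the others of the 4 genes, r with Hcrt was -0.02 and 0.06.

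The suprachiasmatic list, of 5 genes from the nucleus in front of the MBH, was 4.14 to 4.50 in CTRL and 4.34, 3.70, 3.47, 4.41 and 3.55 in Emul 1 to 5, and its r was 0.75 with Hcrt and 0.76 with Pmch. Of its genes, Vip, the peptide of the light-receiving core, was lower unadjusted, at -1.50 ± 0.57 (SE, limma-voom adjusted p = 0.24). Avp, vasopressin, and Rorb, a nuclear receptor, had -0.07 ± 0.21 and -0.05 ± 0.05 (SE). Vip was 0.42, 0.17 and -0.17 log2 CPM in Emul 2, 3 and 5, against 2.42 to 3.41 in CTRL (30 to 412 counts over all libraries). The low list means of Emul 2, 3 and 5 thus rested largely on Vip. By gene, r with Hcrt was 0.74 for Vip, 0.51 for Avp, 0.23 for Rorb, and 0.68 and -0.17 for the rest. The thalamus list was 5.71, 5.57, 6.16, 5.19 and 5.10 in Emul 1 to 5, against 5.02 to 5.36 in CTRL. Its r with Hcrt was -0.05. Across the Emul libraries its order was that of Lhx9, highest in Emul 3 and lowest in Emul 5. In CTRL both were highest in CTRL 2, while the order of the other libraries differed. Whether Lhx9 followed the share of thalamus in the tissue was not tested. Of the 5 thalamus genes, Rora and Calb2 were higher, by 0.26 ± 0.09 and 0.20 ± 0.06 (SE, limma-voom adjusted p = 0.20 and 0.17). All 5 log2 fold changes were positive, from 0.17 to 0.66. The largest were in genes of the list that did not pass the threshold.

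The arcuate list (7 genes, 0 past the threshold) had r = -0.29 with Hcrt, and its 2 most abundant genes, Sst and Npy, had log2 fold changes of -0.01 ± 0.08 and 0.28 ± 0.14 (SE). The mammillary list (5 genes, 0 past the threshold) had r = -0.19, and Sim1 and Foxb1, transcription factors of that region, had -0.05 ± 0.07 and 0.08 ± 0.19. The ventromedial list (4 genes) had r = -0.27, with Fezf1 lower at -0.32 ± 0.10 (limma-voom adjusted p = 0.18), Adcyap1 at 0.23 ± 0.11 and Nr5a1 at -0.00 ± 0.09. The dorsomedial list (3 genes) had r = -0.70, with Grp, the gastrin-releasing peptide, higher by 0.30 ± 0.12 (limma-voom adjusted p = 0.26) and Gpr50 and Ppp1r17 at 0.03 ± 0.12 and -0.00 ± 0.10. The libraries with the lowest Hcrt and Pmch thus also had the lowest means for the suprachiasmatic list and for the list of MCH neuron genes. The mean of the orexin neuron list was instead highest in those libraries (4.810 in Emul 3 and 4.827 in Emul 5). Emul 2 was also low for the suprachiasmatic list (3.70), whose low means rested largely on Vip. The MCH list includes Parpbp, which may hold reads of Pmch, so its match is not independent of Pmch. In Emul 5, Parpbp and another gene of that list lay below CTRL, while Nptx1 (7.22), Cnr1 (6.97) and the remaining gene did not. What the share of each region in the dissected tissue contributed to the peptide values was not tested.

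**Figure D5:**
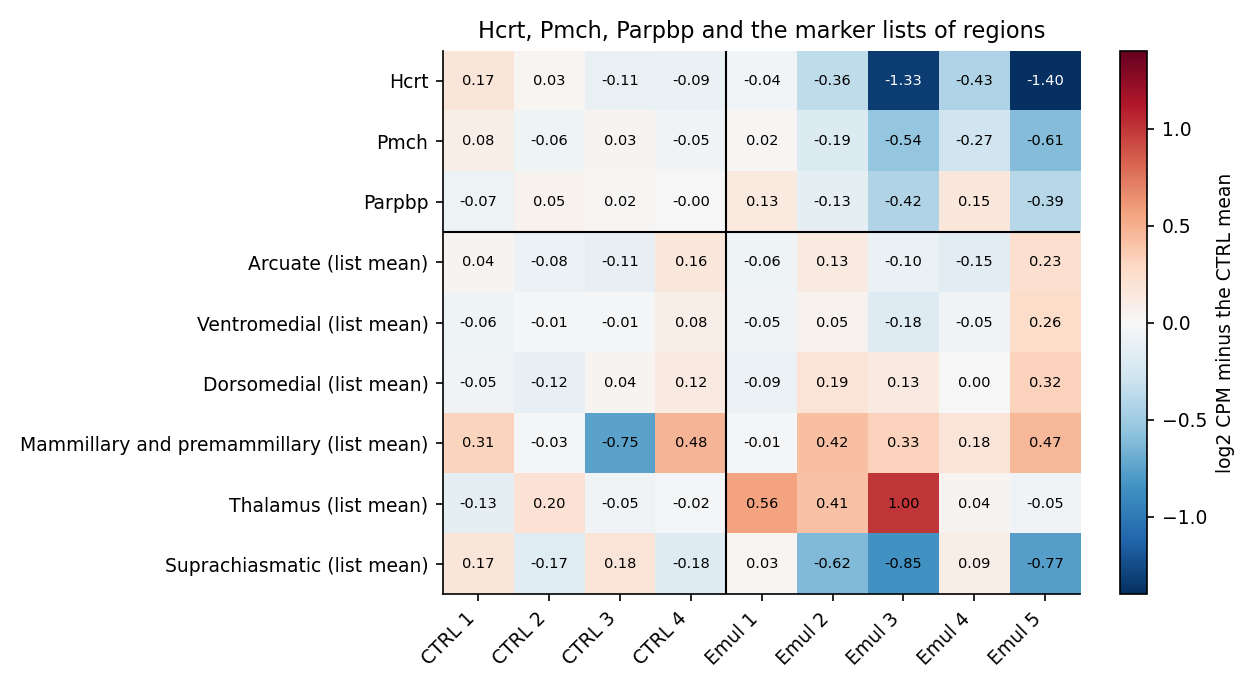
Difference in log2 CPM from the CTRL mean for Hcrt, Pmch and Parpbp and for the mean of each region's marker list other than the lateral one, in the 9 libraries (colour and number). Emul 3 and Emul 5 are low for Hcrt, Pmch, Parpbp and the suprachiasmatic list, and Emul 2 is also low for the suprachiasmatic list (-0.62). The thalamus list is highest in Emul 3 (1.00), also above CTRL in Emul 1 (0.56) and Emul 2 (0.41), and near CTRL in Emul 4 and Emul 5.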

How the data were processed

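RNA was measured in 9 MBH libraries, 4 CTRL and 5 Emul, grouped by the sample labels. Per the labels, the kit selected mRNA and kept strand. Kallisto was run by the authors (0.46.1 in the submitters' processing notes) on mm10, and they deposited, per library, estimated counts, which are not normalized, and TPM for 119414 transcripts. They also deposited a gene table of log2 CPM (14593 rows, 1 without a name), used only as an alternative. No column of other samples was present.

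Transcripts were matched to genes of GENCODE M21 (97.8% matched; the 1.20% to 1.27% of counts on the rest were left out), and estimated counts and TPM were summed per gene. The study's filter (CPM over 1 in 4 or more libraries) left 15340 genes, which were scaled by TMM and compared by limma-voom (limma 3.58.1, edgeR 4.0.16, R 4.3.3) without covariates. Log2 CPM of single libraries used a prior count of 2. Adjusted p-values are Benjamini-Hochberg values over all genes tested. Correlations used all 2880 permutations of libraries within groups, adjusted over 15 pairs, and cannot give a p below 0.00035. Nothing in the labels ties libraries to a batch, so none was modelled, and p-values measure the spread between litters.

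The 6 genes and the lists were chosen with earlier results of these data known. Named are the 6 genes, Parpbp, the list genes with an unadjusted p-value under 0.05, the 2 most abundant tested genes of each list, the 5 genes most alike to Hcrt and to Pmch, and for the assessment of tissue Pomc and Agrp. Some list genes are not reported here and were left out of the counts and means of their lists. The lateral list's correlation with the peptides depended on this, so that list's mean is not given.

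Other settings tried were DESeq2 (1.42.0) and edgeR's quasi-likelihood test, both on rounded counts, limma-trend, library size alone, median-of-ratios size factors, quality weights per sample, 2 other filters, lengthScaledTPM counts, the authors' table, transcripts with Ensembl numbers under 195750, mitochondrial genes left out, the replicate number as a block, and each library left out in turn. The fit and the permutation test were tested on simulated data. Libraries of a group differed by more than sampling noise in every pair (lowest chi-square divided by the number of genes, 7.49).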

Additional observations from a re-analysis of the deposited data

Results flagged for a closer look

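Of 70 groups of values examined, 2 held a library far from the others of its group, where chance gives about 1 in 20. Hcrtr1 in Emul was 3.64 log2 CPM in Emul 2 and 3.28 to 3.37 in the other 4 libraries, so that the gap to the nearest library took 0.750 of the whole range, above Dixon's 95% limit. Without Emul 2 the log2 fold change of Hcrtr1 was -0.07. Plcb4 in CTRL was 7.07 in CTRL 3, the library with the lowest total, and 7.33 to 7.37 in the other 3, a gap of 0.872 of the range, also above that limit.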

How the results depend on the processing

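Under 22 alternatives, the log2 fold changes of Hcrt (-0.87 to -0.51), Pmch (-0.40 to -0.24) and Hcrtr2 (0.21 to 0.31) kept their sign, and in each of them 3 of the 6 had an unadjusted p under 0.05. Leaving out 1 library gave ranges of -0.87 to -0.54 for Hcrt and -0.40 to -0.25 for Pmch. List genes higher in Emul (10) numbered 6 with library size alone, 0 after adjustment, and 5 (without CTRL 3) to 18 (without Emul 4) with 1 library left out. List genes lower in Emul (5) numbered 3 with edgeR's quasi-likelihood test, 0 after adjustment, and 3 (without Emul 3) to 6 with 1 library left out. The correlation of Hcrt and Pmch was 0.95 on the authors' table, where its adjusted p by exact permutation was 0.036 and 1 pair of the 15 passed, and 0.94 to 0.97 with 1 library left out, where 0 to 1 pairs passed (adjusted p of 0.042, exact permutation, without CTRL 2 or without CTRL 3, and up to 0.42). By TPM in place of counts, Hcrtr2-201 took 73.1% of Hcrtr2. The cause of these changes was not tested. Counting depth limits chiefly Lhx9 (98 to 288 counts) and Parpbp (66 to 121).

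With the replicate number as a block, the log2 fold change was -0.51 for Hcrt, -0.24 for Pmch and 0.21 for Hcrtr2, and 1892 genes had an unadjusted p-value under 0.05 in place of 2428. The numbers do not pair the libraries: libraries with the same number came from different litters, and their deviations correlated at -0.16, -0.01, 0.02 and -0.06.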
